A study of Drosophila melanogaster with 3 samples.

Results

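The mitochondrial ribosomal protein genes of Drosophila melanogaster were examined for ChIP-seq peaks of the protein CG33213. The genes were those of the Ensembl BDGP6.54 annotation whose symbol starts with mRpL (large subunit) or mRpS (small subunit). There were 73 of them among 18164 annotated genes, of which 13945 were protein-coding. All 73 were protein-coding, 47 carried a large subunit symbol and 26 a small subunit symbol. They lay on the X chromosome (11 genes) and on the arms 2L (12), 2R (12), 3L (17) and 3R (21).

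The study used chromatin immunoprecipitation with sequencing (ChIP-seq), which recovers DNA fragments bound to a chosen protein. Its single group held 3 biological replicates of whole mixed-sex embryos aged 0 to 24 h from 1 transgenic line, in which CG33213 carries a green fluorescent protein (GFP) tag at its C-terminus. By the description of the samples the fusion protein was pulled down with an antibody to GFP, while their antibody field names CG33213, so whether only the tagged protein was recovered is not settled by the labels. Every sample carried the same transgene. What drives the transgene is not given in the sources used here, a control sample was not analysed here, and there was no second group, so no comparison between conditions and no test was made. The collection spans all of embryogenesis and all cell types, so strong binding in few cells and weak binding in many cannot be told apart.

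Mitochondria keep their own small genome and translate it with their own ribosome, which makes membrane-embedded subunits of the respiratory chain. The ribosomal RNAs of that ribosome come from the mitochondrial genome, while in animals all of its proteins are encoded in the nucleus, made in the cytosol and imported. Some of these proteins have a counterpart in bacterial ribosomes, here called bacterial-type, and the others are found only in mitochondria, here called mitochondria-specific.

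Peaks were taken from the authors' optimal list of 4417 peaks, each with a summit (the position of highest signal) and a signal score. That score is the value of the authors' peak caller and was used here only to rank peaks, rank 1 being the strongest. A gene was called bound where at least 1 of its annotated transcription start sites (TSSs) had a summit no more than 500 bp away. Of the 73 mitochondrial ribosomal protein genes 37 were bound (50.7%), against 25.0% of protein-coding genes and 20.7% of all annotated genes. Of the 47 large subunit genes 25 were bound (53.2%), and of the 26 small subunit genes 12 (46.2%). Bacterial-type proteins accounted for 23 bound genes of 43 (53.5%), and mitochondria-specific proteins for 14 of 30 (46.7%). Bound genes were thus spread over both subunits and both classes, with shares from 41.7% of 12 mitochondria-specific small subunit genes to 55.2% of 29 bacterial-type large subunit genes.

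Each replicate has its own deposited relaxed list of 30000 entries, from which the 4417 strongest were taken so that all lists were of equal length. Replicates 1, 2 and 3 had 33, 35 and 28 mitochondrial ribosomal protein genes bound, which is 45.2%, 47.9% and 38.4% of the 73, with a mean of 43.8% ± 4.94 (SD, n = 3). The shares of protein-coding genes bound in the same lists were 24.7%, 25.1% and 23.9%, with a mean of 24.6% ± 0.588 (SD, n = 3). The members lay above protein-coding genes in all 3 replicates, by 20.5, 22.8 and 14.4 percentage points, a mean of 19.3 ± 4.35 points (SD, n = 3). The difference was larger than its spread between replicates. All replicates were scored on the same 73 genes, so that spread measures how repeatable the calls were and not how much genes vary. Large subunit genes had 22, 23 and 19 bound (21.3 ± 2.08, SD, n = 3) and small subunit genes 11, 12 and 9 (10.7 ± 1.53, SD, n = 3). Of the members 23 (31.5%) were bound in all 3 replicates, against 17.4% of protein-coding genes, and 29 (39.7%) in none.

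**Figure D1:**
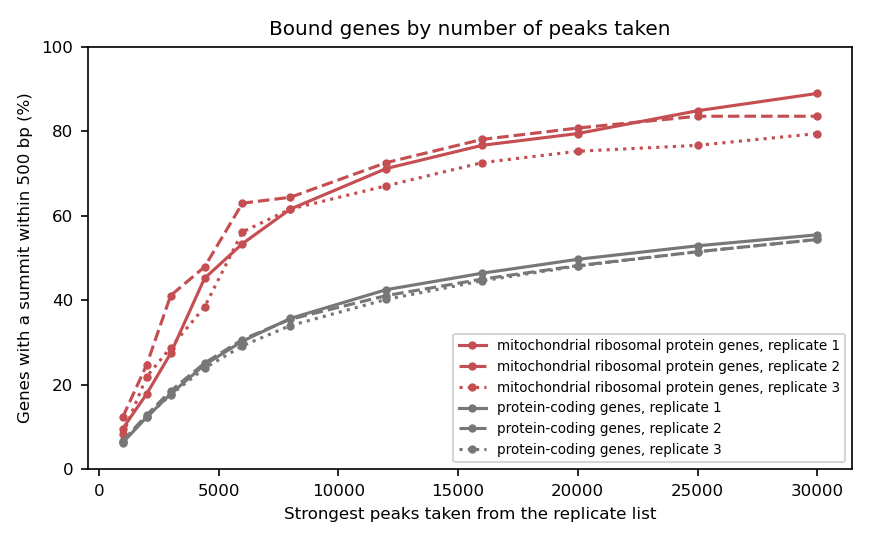
Share of genes with a summit within 500 bp of a TSS (vertical axis, percent) by the number of strongest peaks taken from each replicate's list (horizontal axis), for the mitochondrial ribosomal protein genes (red) and all protein-coding genes (grey), 1 line per replicate. At 1000 peaks the members stood at 9.59%, 12.3% and 8.22% against 6.27%, 6.63% and 6.38% of protein-coding genes, and at 8000 peaks at 61.6%, 64.4% and 61.6% against 35.7%, 35.5% and 34%.

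In percentage points the gap between the members and protein-coding genes was small among the strongest peaks, where both shares were low. It was wide further down the lists, as the plot of bound genes by number of peaks taken shows. With all 30000 entries 89%, 83.6% and 79.5% of the members had a summit within 500 bp in replicates 1, 2 and 3, against 55.5%, 54.4% and 54.4% of protein-coding genes. The relaxed lists hold peaks together with background, so these last shares include entries the authors did not keep.

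The DNA under the summits is shown first for the strongest peaks, at mRpS23 (rank 16) and mRpS10 (rank 19), which carry none of the promoter words searched. It is then shown for examples with CGATA (mRpL47 and mRpL17) and with CAGCTG (mRpS2 and mRpL48), the words found most often, chosen after the matches were known. Each stretch is centred on the summit with 50 bp on either side, on the plus strand of dm6, and was read from the RefSeq genome. The positions are mRpS23 at chr2L:13835408-13835508, mRpS10 at chr3R:15229484-15229584, mRpL47 at chr3R:9515944-9516044, mRpL17 at chr3L:264392-264492, mRpS2 at chr2L:4850569-4850669 and mRpL48 at chr2L:1710397-1710497. Capitals mark CGATA, the core of the element read by the insulator protein BEAF-32, CAGCTG, a form of the E-box read by basic helix-loop-helix factors, and GGTCACAC, the core of promoter Motif 1, which is also in the mRpL48 window.
mRpS23: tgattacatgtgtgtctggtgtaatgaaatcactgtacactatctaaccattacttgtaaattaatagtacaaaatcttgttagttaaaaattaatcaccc
mRpS10: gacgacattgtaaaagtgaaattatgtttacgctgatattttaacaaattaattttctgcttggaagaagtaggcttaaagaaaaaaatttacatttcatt
mRpL47: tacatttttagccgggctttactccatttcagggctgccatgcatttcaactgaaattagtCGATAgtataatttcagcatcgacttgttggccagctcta
mRpL17: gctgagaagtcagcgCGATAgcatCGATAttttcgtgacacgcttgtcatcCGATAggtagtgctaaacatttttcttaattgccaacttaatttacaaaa
mRpS2: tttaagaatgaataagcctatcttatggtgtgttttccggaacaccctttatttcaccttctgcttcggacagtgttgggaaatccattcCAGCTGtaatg
mRpL48: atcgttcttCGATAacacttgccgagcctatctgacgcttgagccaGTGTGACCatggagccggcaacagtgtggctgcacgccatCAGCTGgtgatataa

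Across the 37 windows, CGATA was in 12 (32.4%) of the members' windows, against 33.9% of the 2551 distinct peaks at protein-coding promoters. CAGCTG was in 6 (16.2%), against 8.19%, and with 100 bp on each side in 13 (35.1%), against 15.4%. The DNA replication-related element TATCGATA, which contains CGATA, was in 2 (5.41%, against 7.72%), and GGTCACAC was also in 2 (5.41%, against 7.06%). TATAAA was in 5 (13.5%, against 11.9%). Motif 7 (CATCNCTA), the ETS word CCGGAAG, the NRF1-like word GCGCATGC, the GAGA word GAGAGAG and the TCT-like word TTCTTTTC were in none of the 37, against 5.53%, 0.47%, 0.235%, 1.37% and 0.862% of protein-coding promoter peaks. Both strands were searched, and a match describes letters and not a site. Any of the 9 words other than CGATA was in 13 of the members' windows (35.1%, against 37.5%), and in 10 (27%, against 20.5%) when the window was moved by 500 bp. Of the 10 words, CAGCTG was the one whose share in the members' windows exceeded that of other promoter peaks the most. It was in 6 of the 37 windows at the summit and in 3 (8.11%, against 5.33%) of those moved by 500 bp.

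Most of the members have a promoter that faces another gene. A gene was called head-to-head where a TSS of a protein-coding gene transcribed in the opposite direction lay within 500 bp upstream of its own. Of the 73 members 53 were head-to-head (72.6%), against 27.4% of protein-coding genes, with 34 of 47 large subunit genes (72.3%) and 19 of 26 small subunit genes (73.1%). The distance between the paired TSSs had a median of 264 bp in the members (20 to 499 bp), against 244 bp in protein-coding genes.

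Bound calls were more frequent in this arrangement, in part by construction, because a peak at the partner's start within 500 bp also counts. Of the 53 head-to-head members 34 were bound (64.2%), against 47.0% of head-to-head protein-coding genes. Of the 20 other members 3 were bound (15%), and of protein-coding genes that are not head-to-head 16.7% were. The 3 were mRpL41, mRpL13 and mRpL4. Counted only where the own TSS was nearest or tied, the bound members were 13 of the 53 and these 3 of the 20. In the replicates 54.7%, 58.5% and 47.2% of head-to-head members were bound, a mean of 53.5% ± 5.76, against 46.3%, 48.5% and 44.2% of head-to-head protein-coding genes, a mean of 46.3% ± 2.15 (SD, n = 3 each). The difference was 8.43, 9.97 and 2.95 points (7.12 ± 3.69, SD, n = 3), of 1 sign in all 3 replicates and smaller than the difference taken over all genes. That sign depended on the number of peaks taken. With the 1000 strongest peaks head-to-head members stood at 9.43%, 13.2% and 7.55%, below the 12.2%, 13.4% and 12.7% of head-to-head protein-coding genes. With 8000 peaks they stood at 73.6% in each replicate, against 62.8%, 64.6% and 60.1%. For the other members the difference was 3.46, 3.71 and -1.31 points (1.95 ± 2.83, SD, n = 3), which did not exceed its spread. Here too the sign varied with the number of peaks. With 1000 peaks these members stood at 10% in each replicate, against 4.06%, 4.08% and 4.02% of the other protein-coding genes. With 3000 peaks they stood at 15%, 10% and 10%, against 11.7%, 11.7% and 11.8%. With 8000 peaks they stood at 30%, 40% and 30%, against 25.4%, 24.6% and 24.1%.

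The 37 bound members stood against 28.2 that the protein-coding rate of each arrangement gives for 73 genes of these arrangements, and against 18.2 at the rate of all protein-coding genes. In replicates 1, 2 and 3 the counts of 33, 35 and 28 stood against 27.8, 29 and 26.7 by arrangement. With these 4417 peaks per replicate the observed count stood above the number by arrangement in all 3 replicates, least in replicate 3. Whether the arrangement, or another property that goes with it, accounts for the share of bound members was not tested.

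**Figure D2:**
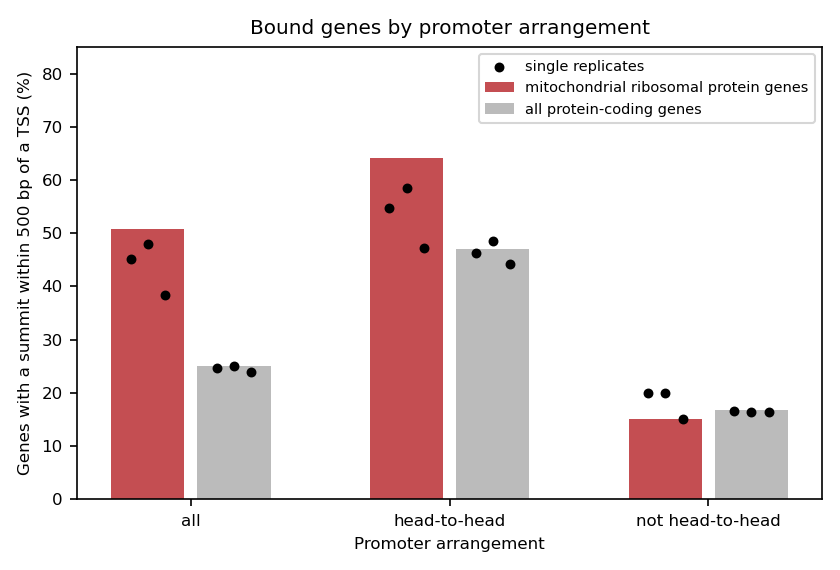
Share of genes bound (vertical axis, percent) among all genes, head-to-head genes and genes that are not head-to-head, for the mitochondrial ribosomal protein genes (red) and protein-coding genes (grey), with bars for the optimal list and points for the 4417 strongest peaks of replicates 1, 2 and 3. Head-to-head members reach 64.2% against 47.0%, and the other members 15% against 16.7%.

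At a shared promoter the nearest TSS can belong to the neighbour. The members' own TSS was the nearest to the summit in 14 of the 37 bound genes, and in 21 (56.8%) the TSS of another gene was closer. In the 2 ties, mRpL13 with CG10602 and mRpL53 with CG33155, both genes start at the same annotated position on the same strand. Own or tied TSSs made up 43.2% of bound members, against 73.9% of bound protein-coding genes, and among head-to-head genes 38.2%, against 54.1%. Counted only where their own TSS was nearest or tied, 16 of the 73 members were bound (21.9%), against 18.4% of protein-coding genes. The latter share is not matched for arrangement. Within head-to-head genes 13 of 53 members were bound in this way, against 970 of 3815 protein-coding genes, so the members' share was no higher. In all 34 bound head-to-head members the partner was bound as well, as in 97.2% of bound head-to-head protein-coding genes. This follows largely from the definitions, because a summit between paired TSSs lies within 500 bp of both. Which of the paired genes a peak belongs to cannot be told apart from its position.

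Summits lay upstream of the members' TSSs. The median position was -111 bp (negative values are upstream), with quartiles of -193 and -61 bp and a range from -463 to 51 bp, against a median of -74 bp in bound protein-coding genes. In the replicates' own lists the median position at bound members was -112, -115 and -113 bp, an SD of 1.53 bp. The summit was upstream in 35 of 37 members (94.6%), against 85.9% of bound protein-coding genes, and within 100 bp of the TSS in 18 (48.6%), against 58%. These references are not matched for arrangement: 91.9% of bound members were head-to-head, against 51.5% of bound protein-coding genes. A summit between paired TSSs is upstream of both by definition. Whether positions differ between members and other genes of the same arrangement was not tested. In 27 of the 34 bound head-to-head members (79.4%) the summit lay between the paired TSSs, against 74% in protein-coding genes. By the annotation 29 of the 37 summits were intergenic. The others lay in the 5′ UTR of the member itself (mRpL23 and mRpL42), in the 5′ UTR of the neighbour (Taz, Uba4, Mitofilin, Cip4 and HtrA2) or in an intron of AGO1 (at mRpL53).

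**Figure D3:**
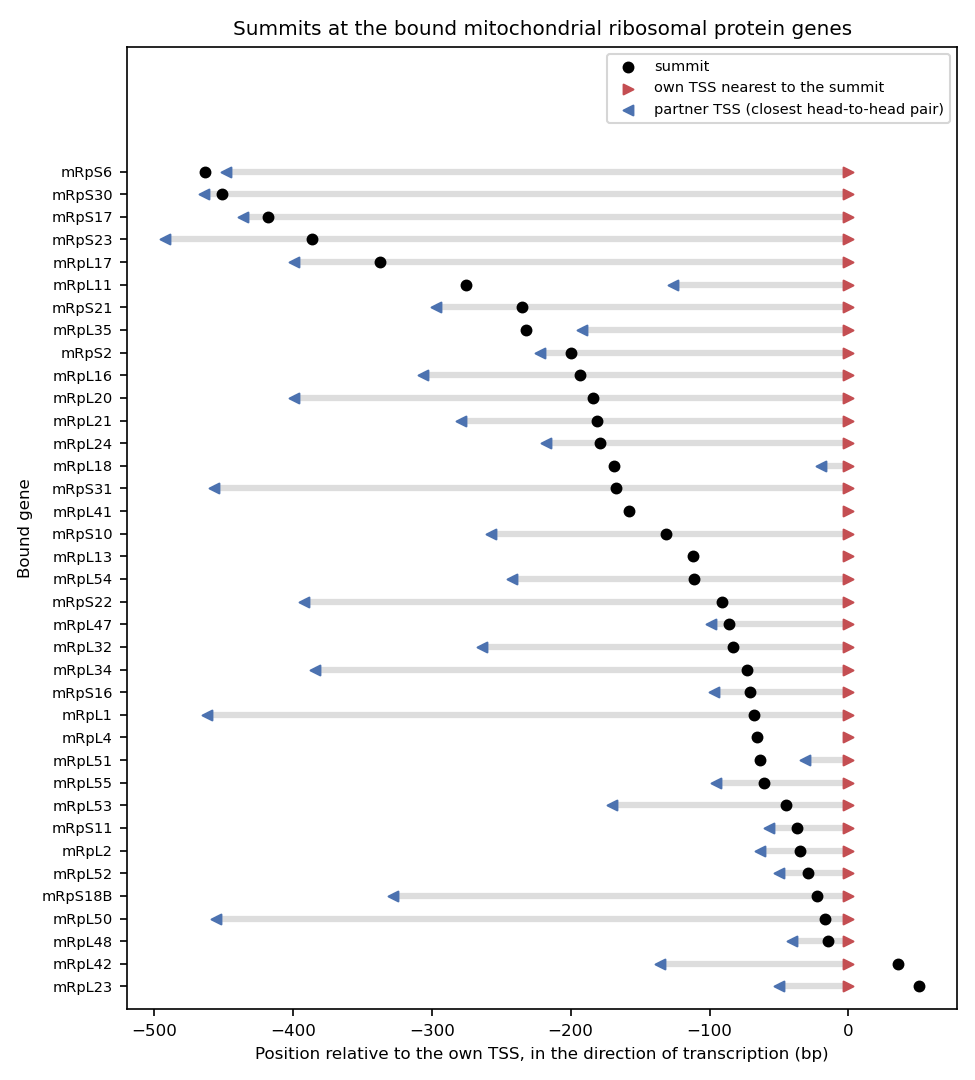
Position of the summit (black points) relative to the nearest TSS of each of the 37 bound mitochondrial ribosomal protein genes (red triangles, at 0; horizontal axis in bp, negative upstream), with the TSS of the closest head-to-head partner (blue triangles) and the stretch between them (grey). Genes run from the most distant summit, mRpS6 at -463 bp, to mRpL23 at 51 bp, and 27 summits lie between the paired TSSs.

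By signal most bound members ranked in the weaker part of the optimal list, while 4 were among its strongest peaks. Their median rank was 2638 of 4417 (16 to 3973), against 2154 for the distinct peaks at protein-coding promoters and 2045.5 for those at head-to-head promoters. Among the 100 strongest peaks were those of 4 members (10.8% of the 37), against 2.33% of bound protein-coding genes. In the top 25% were 7 (18.9%, against 26.6%), and in the bottom 25% were 10 (27%, against 22.3%). The median rank of bound members in the replicates' lists was 2665, 2072 and 1889.5 (SD 405). The nearest peak was not the strongest within 500 bp at 3 genes, mRpL34 (rank 2517, with a peak of rank 1232), mRpS22 (2638 and 1855) and mRpS31 (3801 and 2038), and with the strongest peak taken the median was 2494.

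**Figure D4:**
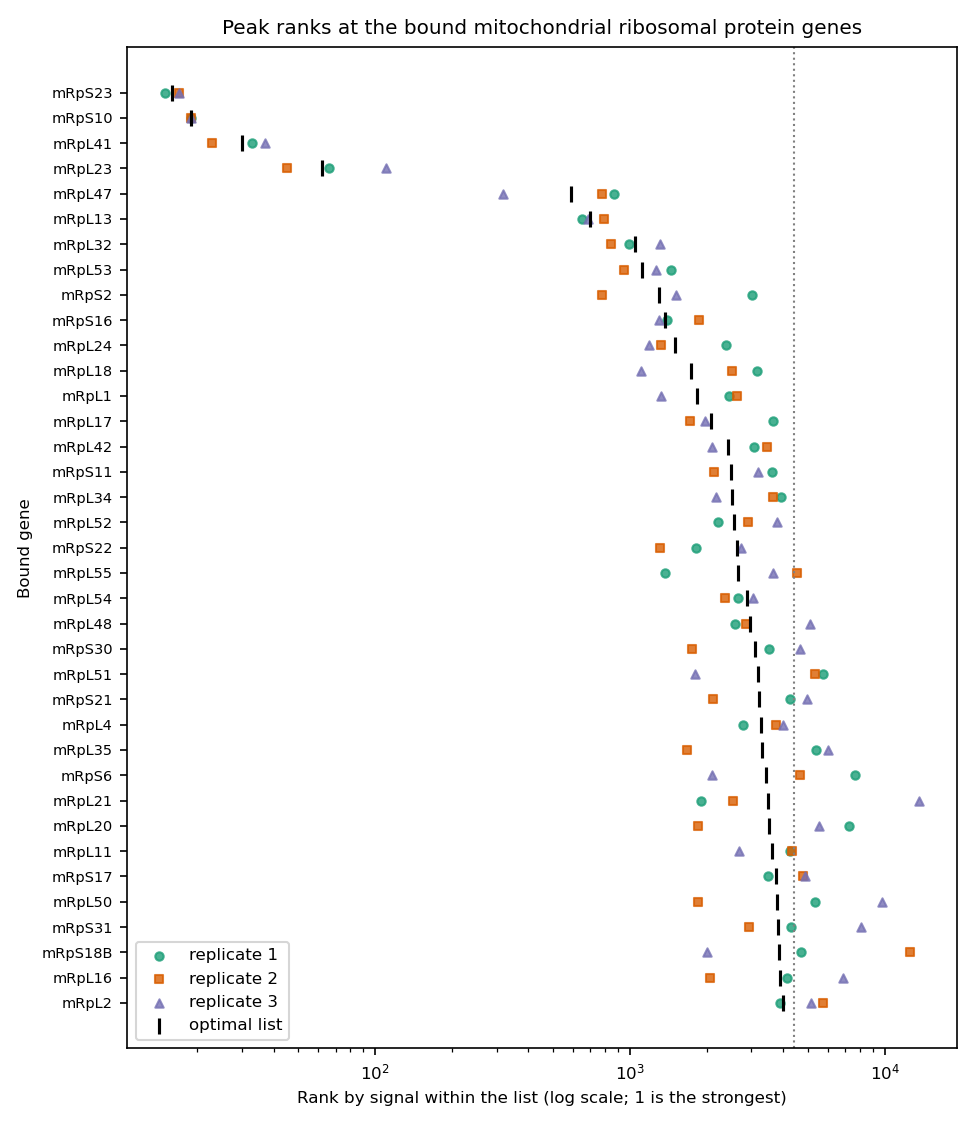
Rank by signal (horizontal axis, log scale, 1 is the strongest) of the peak at each of the 37 bound genes in the optimal list (black bars) and of the best entry within 150 bp of its summit in replicates 1, 2 and 3 (coloured symbols); the dotted line marks rank 4417. The 4 genes at the top, mRpS23, mRpS10, mRpL41 and mRpL23, keep ranks of at most 110 in all 3 replicates, and the spread between replicates is wider among the weaker peaks.

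The strongest of these peaks were at small subunit genes. The mRpS23 gene, of a mitochondria-specific small subunit protein, had its summit at position 13835458 of 2L, 386 bp upstream of its TSS, at rank 16 in the optimal list and 15, 17 and 17 in the replicates. That summit was 106 bp from the TSS of CenG1A, which encodes a GTPase-activating protein for Arf. The mRpS10 gene, whose bacterial counterpart sits in the head of the small subunit, had rank 19 in the optimal list and in every replicate. Its summit at 15229534 of 3R was 131 bp from its own TSS and 126 bp from that of Art3, an arginine methyltransferase gene. At neither gene was the member the nearer one.

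Among large subunit genes mRpL41, of a mitochondria-specific protein, had rank 30, with 33, 23 and 37 in the replicates, and a summit at 15217775 of 2R, 158 bp upstream. It had no head-to-head protein-coding partner, the nearest other TSS being that of lncRNA:CR44463 at 420 bp. The mRpL23 gene, whose protein sits at the exit of the nascent peptide tunnel, had rank 62, with 66, 45 and 110 in the replicates. Its summit at 2373627 of 3L lay 51 bp downstream of its TSS and 101 bp from that of CG9004. These 4 genes stood apart from the rest, the fifth being at rank 590.

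The other large subunit genes of bacterial type follow by rank. The mRpL47 gene, of the counterpart of bacterial L29 at the tunnel exit, had rank 590 (870, 776 and 319 in the replicates) and a summit at 9515994 of 3R, 86 bp from its TSS and 13 bp from that of CG8176. The mRpL13 gene had rank 698 (646, 793 and 687) and a summit at 18859360 of 2L, 112 bp from the TSS it shares with CG10602. The mRpL32 gene had rank 1043 (992, 846 and 1311) and a summit at 31252789 of 3R, 83 bp from its TSS and 181 bp from that of qless, which acts in the synthesis of the ubiquinone side chain. Ranks in the replicates were close together at mRpL13 and mRpL32 and spread more at mRpL47, and of these 3 genes mRpL32 was the one with its own TSS alone nearest. The mRpL24 gene had rank 1507 (2381, 1330 and 1191) and a summit at 4945540 of 2L, 179 bp from its TSS and 39 bp from that of betaggt-I, a prenyltransferase subunit gene. The mRpL18 gene, whose bacterial counterpart binds 5S ribosomal RNA, had rank 1732 (3162, 2513 and 1106). Its summit at 12756265 of 2R lay 169 bp from its TSS, inside the gene of Taz (tafazzin, which remodels the mitochondrial lipid cardiolipin), whose TSS was 149 bp away and only 20 bp from that of mRpL18. The replicates were further apart at mRpL24 and mRpL18, at both of which the other gene was nearer.

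Below these the large subunit genes of bacterial type had ranks from 1832 to 3973. The mRpL1 gene, of the protein of the mobile L1 stalk, had rank 1832 and a summit at 8301372 of 3R, 68 bp upstream of a TSS that was itself the nearest. The mRpL17 gene had rank 2073 and a summit at 264442 of 3L, 337 bp upstream but 62 bp from the TSS of Tudor-SN. At mRpL34, rank 2517, the summit at 16098875 of 2R lay 73 bp upstream and 311 bp from the TSS of Dg, the dystroglycan gene. The mRpL4 gene, whose bacterial counterpart reaches into the peptide tunnel, had rank 3280 and a summit at 16329198 of 2L, 66 bp upstream, with the next gene's TSS 727 bp away. It was among the 3 bound members with no head-to-head partner. At mRpL35, rank 3295, the summit at 22023295 of 3R was 232 bp upstream and 40 bp from the TSS of Mitofilin, whose protein shapes the inner membrane cristae. At mRpL21, rank 3470, it was at 19255242 of 3L, 181 bp upstream and 98 bp from the TSS of rept. At mRpL20, rank 3519, it was at 13018051 of 3L, 184 bp upstream and 215 bp from the TSS of Icmt, so that the member was the nearer gene. At mRpL11, whose protein is part of the site where translation factors bind, the rank was 3606 and the summit at 14511563 of 3R, 275 bp upstream and 103 bp from a TSS of HtrA2, a mitochondrial protease gene. At mRpL16, rank 3887, the summit at 1890063 of X was 193 bp upstream and 113 bp from the TSS of trr, a histone H3 lysine methyltransferase gene. The mRpL2 gene, whose protein lies by the peptidyl transferase centre, had the weakest peak of the 37, rank 3973, at 11120812 of 3L, 35 bp upstream and 29 bp from the TSS of FoxK.

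Of the mitochondria-specific large subunit genes, mRpL53 had the highest rank after mRpL41, 1118 (1455, 952 and 1266 in the replicates), with a summit at 13954150 of 2R, 45 bp from the TSS shared with CG33155 and opposite AGO1, an Argonaute gene. The mRpL42 gene had rank 2427 and a summit at 10066686 of 2R, 36 bp downstream of its TSS and 172 bp from that of PIG-N. At mRpL52, rank 2551, the summit at 7674429 of 2R lay 29 bp from its TSS and 21 bp from that of CG12107. With mRpL23, mRpL42 made up the pair of members whose summit was downstream of the TSS. At mRpL55, rank 2651, the summit at 19094966 of 3R lay 61 bp upstream and 34 bp from the TSS of ATPsynD, which encodes a subunit of ATP synthase. At mRpL54, rank 2870, it was at 21060678 of 2R, 111 bp upstream and 131 bp from the TSS of CG15653. At mRpL48, rank 2960, it was at 1710447 of 2L, 15 bp upstream, the shortest distance of the 37, and 26 bp from the TSS of CG17660. Of these, mRpL42, mRpL54 and mRpL48 had their own TSS nearest. At mRpL51, rank 3169, the summit at 8517444 of 2L lay 64 bp upstream, inside Uba4, whose TSS was 33 bp away. At mRpL50, rank 3794, it was at 7243950 of 3L, 17 bp upstream, with the TSS of mei-P22 438 bp away, so that its own TSS was nearest too.

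The remaining small subunit genes of bacterial type were mRpS2, mRpS16, mRpS11, mRpS21, mRpS6 and mRpS17, and another gene's TSS was nearer at all 6. The mRpS2 gene had rank 1297 (3002, 779 and 1523 in the replicates) and a summit at 4850619 of 2L, 200 bp from its TSS and 22 bp from that of Mon1. The mRpS16 gene had rank 1373 (1397, 1867 and 1298) and a summit at 14173667 of 2R, 71 bp from its TSS and 26 bp from that of cg (combgap, a zinc finger protein gene). Ranks in the replicates were closer together at mRpS16 than at mRpS2. At mRpS11, whose bacterial counterpart forms part of the subunit's platform, the rank was 2494 and the summit at 17072695 of 3R, 37 bp upstream and 20 bp from the TSS of Ns1. At mRpS21, rank 3209, it was at 13382044 of 3R, 235 bp upstream and 62 bp from the TSS of Droj2, a DnaJ-type chaperone gene. At mRpS6, rank 3407, it was at 4364087 of 3L, 463 bp upstream and 15 bp from the TSS of Cip4, and at mRpS17, rank 3728, at 24174859 of 2R, 418 bp upstream and 18 bp from the TSS of Nop60B, a pseudouridine synthase gene. Together with mRpS30 these are the 3 bound members nearest to the limit of 500 bp, and at all 3 the summit lay within 18 bp of the neighbour's TSS.

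The other mitochondria-specific small subunit genes had weaker peaks than mRpS23. At mRpS22, rank 2638, the summit at 27916817 of 3R was 91 bp upstream and 301 bp from the TSS of CG5003. At mRpS30, rank 3091, it was at 15785596 of X, 451 bp upstream and 13 bp from the TSS of Paf-AHalpha. At mRpS31, rank 3801, it was at 16005026 of 3L, 167 bp upstream and 290 bp from the TSS of hzg. The mRpS18B gene had rank 3838 and a summit at 20097276 of 2L, 23 bp upstream and 305 bp from the TSS of Kua, and its replicates differed widely, at ranks 4697, 12586 and 2008. In the human ribosome the counterparts of mRpS30 and mRpS18A sit in the large subunit, so the grouping by symbol used here is not strictly by structure.

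Agreement between replicates was as follows for the bound members. Their best entries within 150 bp of the summit had a median rank of 3002 (15 to 7663) in replicate 1, 2111 (17 to 12586) in replicate 2 and 2183 (17 to 13668) in replicate 3, the last of these ranges ending at mRpL21. Of the 37, 23 (62.2%) were also bound in all 3 replicates' lists of 4417 peaks, against 69.1% of bound protein-coding genes.

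The 36 members that were not bound were mRpL3, mRpL9, mRpL10, mRpL12, mRpL14, mRpL15, mRpL19, mRpL22, mRpL27, mRpL28, mRpL30, mRpL33, mRpL36, mRpL37, mRpL38, mRpL39, mRpL40, mRpL43, mRpL44, mRpL45, mRpL46, mRpL49, mRpS5, mRpS7, mRpS9, mRpS14, mRpS18A, mRpS18C, mRpS24, mRpS25, mRpS26, mRpS28, mRpS29, mRpS33, mRpS34 and mRpS35. They include mRpL3, whose protein lies near the peptidyl transferase centre, mRpL10 and mRpL12, whose proteins form the stalk that recruits translation factors, and mRpS29, of a GTP-binding protein. Just outside the limit was mRpL33, with a summit of rank 4317 at 527 bp and 132 bp from the TSS of norpA. The next nearest summits were well beyond it, at 1112 bp for mRpS5 and 1270 bp for mRpL27. The latter summit was 12 bp from the TSS of RpL27A, a cytosolic ribosomal protein gene. The nearest optimal summit to the unbound members was at a median of 4778.5 bp (527 to 40729 bp), against 10283 bp for unbound protein-coding genes.

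Most of the unbound members had entries in the relaxed lists. A summit of the relaxed list made from the pooled replicates lay within 500 bp at 27 of the 36 (75%), against 39.5% of unbound protein-coding genes. Summits of all 3 replicates' relaxed lists were there at 15 (41.7%), against 23.7%. No list had an entry at 3 genes, mRpS33, mRpL46 and mRpS35. By arrangement, 13 of 19 unbound head-to-head members had a pooled entry (68.4%, against 63.1% of unbound head-to-head protein-coding genes), and 14 of 17 others (82.4%, against 33.8%). The best pooled entries of the 27 had a median rank of 9925 (4497 to 27195), against 10042 for unbound protein-coding genes with an entry. The highest were at mRpL37 (4497), mRpS7 (4593), mRpS18C (4702), mRpL9 (4709) and mRpS26 (4734), all shortly after rank 4417.

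Of these unbound members 7 (19.4%) were bound in the 4417 strongest peaks of a replicate, against 9.52% of unbound protein-coding genes. They were mRpL10 (rank 3120) and mRpS24 (4267) in replicate 1, mRpL37 (2525), mRpS5 (3463), mRpS7 (3351) and mRpS26 (2968) in replicate 2, and mRpL33 (3504) in replicate 3. Each was bound in a single replicate, and mRpL10 had no entry within 500 bp in the other lists.

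Shares differed between chromosomes. On X 2 of 11 members were bound, mRpS30 and mRpL16 (18.2%, against 22.1% of protein-coding genes on X). The shares were 66.7% of 12 on 2L (against 23.9%), 75% of 12 on 2R (against 25.2%), 47.1% of 17 on 3L (against 26.1%) and 47.6% of 21 on 3R (against 26.3%). The numbers for single chromosomes are small and were not tested.

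The word CAGCTG was also frequent near the members' start sites. In the stretch from 250 bp before to 50 bp after the outermost TSS it was found in 40 of the 73 members (54.8%), against 17.7% of protein-coding genes. Large subunit genes had it in 27 of 47 (57.4%) and small subunit genes in 13 of 26 (50%), bacterial-type proteins in 53.5% and mitochondria-specific proteins in 56.7%. Among the 2080 6-letter words (a word and its reverse complement taken as 1) it had the largest difference in share between members and protein-coding genes, 37.1 points. The next were ACAGCT (30.9 points) and AACAGC (28.7 points), which overlap it. This ranking was made after the words had been counted.

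The 6 promoters below belong to bound members and hold CAGCTG close to the start site, where it was most often found, and were picked after the counts. Each runs from 60 bp before the TSS to 39 bp after it, 5′ to 3′ on the gene's strand, in dm6 coordinates from the RefSeq genome, and capitals mark CAGCTG. They are mRpL2 at chr3L:11120787-11120886 (+ strand), mRpL17 at chr3L:264719-264818 (+ strand), mRpL47 at chr3R:9515869-9515968 (- strand), mRpL55 at chr3R:19094866-19094965 (- strand), mRpS21 at chr3R:13381770-13381869 (- strand) and mRpL35 at chr3R:22023467-22023566 (+ strand).
mRpL2: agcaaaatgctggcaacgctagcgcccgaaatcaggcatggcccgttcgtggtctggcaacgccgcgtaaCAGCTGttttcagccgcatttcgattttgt
mRpL17: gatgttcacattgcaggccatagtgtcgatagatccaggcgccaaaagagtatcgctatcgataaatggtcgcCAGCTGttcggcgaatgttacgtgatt
mRpL47: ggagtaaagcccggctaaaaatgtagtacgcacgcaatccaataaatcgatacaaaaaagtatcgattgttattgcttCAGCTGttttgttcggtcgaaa
mRpL55: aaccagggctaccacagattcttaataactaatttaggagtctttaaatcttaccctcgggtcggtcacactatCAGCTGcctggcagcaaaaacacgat
mRpS21: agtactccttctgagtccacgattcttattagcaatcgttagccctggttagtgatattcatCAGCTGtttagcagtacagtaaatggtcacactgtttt
mRpL35: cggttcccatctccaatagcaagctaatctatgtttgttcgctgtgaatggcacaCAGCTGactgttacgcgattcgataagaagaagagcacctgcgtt

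The word was also present in members without a peak, of which 4 are shown in the same way for comparison. They are mRpL28 at chr2L:4973916-4974015 (+ strand), mRpS34 at chr3L:16348014-16348113 (+ strand), mRpL46 at chr3L:1777379-1777478 (+ strand) and mRpS33 at chr3R:16436558-16436657 (- strand), and mRpL46 and mRpS33 are among the 3 members with no entry in any relaxed list.
mRpL28: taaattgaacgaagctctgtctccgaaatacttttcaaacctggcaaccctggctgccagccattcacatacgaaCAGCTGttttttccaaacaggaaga
mRpS34: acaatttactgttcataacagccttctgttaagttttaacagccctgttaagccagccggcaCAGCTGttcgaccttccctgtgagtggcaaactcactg
mRpL46: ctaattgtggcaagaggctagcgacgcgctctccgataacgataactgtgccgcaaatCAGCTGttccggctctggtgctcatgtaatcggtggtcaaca
mRpS33: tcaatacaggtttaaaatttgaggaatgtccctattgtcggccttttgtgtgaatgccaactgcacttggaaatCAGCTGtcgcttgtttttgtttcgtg

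Its place in the promoter was narrow. The 40 members held 45 sites, with the first base at a median of 2 bp from the TSS (quartiles -34 and 16 bp), against a median of -51 bp in protein-coding genes. From -50 to 24 bp there were 32 of the 45 sites (71.1%), against 42.2% of the sites in protein-coding promoters. The bin from 0 to 24 bp alone held 19 sites, or 26 per 100 promoters, against 2.98. In 5 members there were 2 sites. Those of mRpS6 were at 14 and 30 bp, while mRpS2, mRpL24, mRpL54 and mRpL32 each had 1 near the TSS and another at -245, -237, -239 and -248 bp. The partner's TSS at these 4 genes was 222, 218, 242 and 264 bp away, so the far site lay beside the start of the partner.

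**Figure D5:**
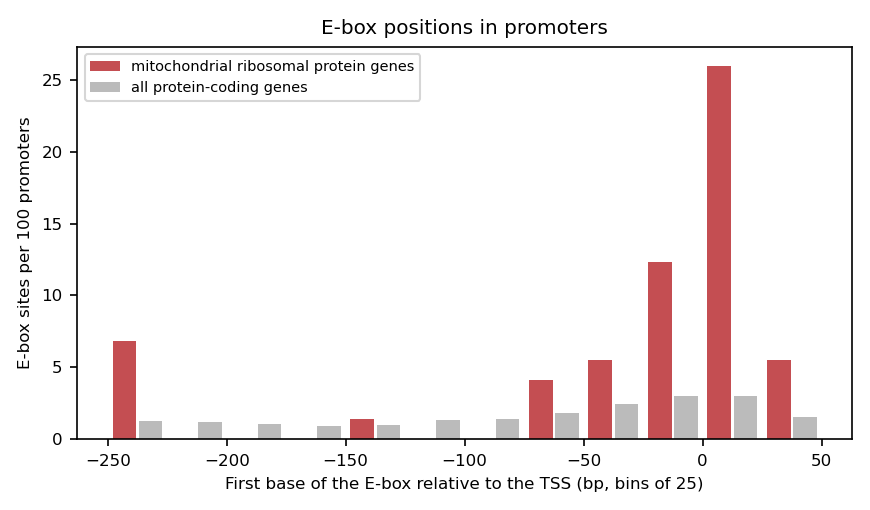
CAGCTG sites per 100 promoters (vertical axis) in bins of 25 bp by the position of the first base relative to the outermost TSS (horizontal axis, bp), in the mitochondrial ribosomal protein genes (red) and all protein-coding genes (grey). The members' sites are most dense from 0 to 24 bp, at 26 per 100 promoters against 2.98.

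The share of promoters with CAGCTG did not follow the arrangement of the members. It was 54.7% of 53 head-to-head members, against 25.1% of head-to-head protein-coding genes, and 55% of the 20 other members, against 14.9%. Bound members had it in 24 of 37 (64.9%) and unbound members in 16 of 36 (44.4%), against 21.6% of bound and 16.4% of unbound protein-coding genes. Members with the word were bound in 24 of 40 (60%) and those without it in 13 of 33 (39.4%), against 30.5% and 23.8% of protein-coding genes. Distances from the summit were taken only to CAGCTG sites inside the promoter stretch. In the 24 bound members with one, the nearest such site was a median of 104.5 bp away (38 to 479 bp). It was within 50 bp in 4 (mRpS2, mRpL48, mRpS18B and mRpL2). At mRpS30 and mRpL11 the CAGCTG of the summit window lay outside the promoter stretch, so these distances leave it out. At mRpL11 that site was at -14 to -9 bp from the summit, while the nearest site inside the stretch was 272 bp away. Whether the word bears on binding was not tested. Of the other words, TATCGATA was in 15 members' promoters (20.5%, against 9.37%), CGATA in 43 (58.9%, against 47.5%), GGTCACAC in 8 (11%, against 7.71%) and TATAAA in 34 (46.6%, against 45.9%). The ETS word CCGGAAG was in none, against 1.1%.

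Other nuclear genes of mitochondrial gene expression and import were bound in 19 of 61 genes (31.1%), against 25.0% of protein-coding genes. The list held 2 further proteins of the mitochondrial small subunit, whose genes have other symbols. Of these, tko, which encodes the counterpart of bacterial S12, was bound (rank 1662, summit 41 bp from its TSS on X) and bonsai, of the counterpart of S15, was not. Translation factors were bound in 3 of 10 (mRF1, mIF2 and waw), transcription and RNA processing genes in 4 of 16 (PNPase, SLIRP2, mldr and SLIRP1), and DNA maintenance genes in 2 of 5 (PolG2 and mtSSB). Import genes were bound in 6 of 13 (Tom7, Roe1, Hsc70-5, Tim10, Tim17b and Tom40) and mitochondrial aminoacyl-tRNA synthetases in 3 of 15 (AspRS-m, PheRS-m and ArgRS-m). The 2 strongest of these, PNPase (rank 8) and SLIRP2 (rank 56), act on mitochondrial RNA. CAGCTG was in 41% of these 61 promoters, against 17.7% of protein-coding genes, so its frequency was not particular to the members. It was in tko and bonsai, 5 of 10 translation factor genes, 7 of 16 transcription and RNA processing genes and 7 of 15 synthetase genes. Import genes had it in 4 of 13 and DNA maintenance genes in 0 of 5.

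The genes of the cytosolic ribosome and of respiratory complex I, part of whose core is made by the mitochondrial ribosome, gave different pictures. Cytosolic ribosomal protein genes were bound in 74 of 85 (87.1%), with a median rank of 596, the summit at a median of -28.5 bp, the own TSS nearest or tied in 94.6% of the 74, and CAGCTG in 8.24% of promoters. Complex I subunit genes were bound in 15 of 40 (37.5%), with CAGCTG in 32.5%. Over both arrangements the members, at 50.7%, lay between them in share bound. They had weaker and more distal summits than the cytosolic set and the highest share of CAGCTG of the 3. The sets differed in arrangement, with 72.6% of members, 50% of complex I and 38.8% of cytosolic genes head-to-head. Among head-to-head genes 64.2% of members were bound, against 50% and 90.9%. Among the others 15% of 20 members were bound, the lowest share, against 25% of 20 and 84.6% of 52. Summit positions were not matched for arrangement. These comparisons are of counts and were not tested.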

How the data were processed

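The deposited files were peak lists in dm6 coordinates: 1 relaxed list of peaks and background per replicate, 1 relaxed list from the pooled replicates, and 1 optimal list left after the irreproducible discovery rate (IDR) step, per the text files deposited with them. In each the authors gave a signal score and a −log10 q-value per peak. Only the score was used, to rank peaks. The sources used here do not name the peak caller, the aligner or the cut-off of the IDR step. The lists hold no read counts, so depth and counting error are unknown. Lists in dm3 coordinates were not used.

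Gene models came from Ensembl release 115 and sequences from the RefSeq genome of the same assembly. All 73 symbols matched the RefSeq gene table. Each gene's distance was taken from any of its TSSs to the nearest summit. Gene lists held 10 further symbols that matched no gene and were left out. Bound calls of members and of all genes were made by the same steps, in Python 3.11.15 with pandas 2.3.3 and numpy 2.4.6, tested on simulated peaks. The members, the lists and the words were chosen with earlier results of these data known. Every bound member is named, with replicate ranks for the 12 of highest signal. The E-box promoter counts were added after seeing the data. Alternatives were the promoter distance, stronger or reproducible peaks, each replicate left out, the TSS chosen, the number of peaks per replicate and the word window.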

Additional observations from a re-analysis of the deposited data

How the results depend on the processing

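With a promoter distance of 250 bp 31 members were bound (against 21.4% of protein-coding genes), with 1000 bp 38, which were the 37 and mRpL33 (27.9%), and with 1 TSS a gene 37 (23.2%). With 250 bp the median position was -83 bp. With the 50% of peaks of higher signal 17 members were bound (11 large and 6 small subunit, 12 bacterial-type and 5 mitochondria-specific, 15 head-to-head, 6 with the own TSS nearest or tied), at a median rank of 1232 and position of -158 bp, with 8 other mitochondrial genes and 13.7% of protein-coding genes. With peaks found in all 3 replicates there were 23 (16 large, 7 small, 15 bacterial-type, 8 mitochondria-specific, 20 head-to-head), at rank 1732 and -91 bp, with 11 other mitochondrial genes and 16.9% of protein-coding genes. Counting only the TSS nearest to each summit left 16 (18.6% of protein-coding genes, a share not matched for arrangement). With pairs up to 1000 bp apart taken as head-to-head, 36 of 58 head-to-head members were bound, against 42.2% of head-to-head protein-coding genes. Of the 15 other members 1 was bound, against 15.2% of other protein-coding genes. The mean per replicate was 15.7 members with 2000 peaks (17.8%, 24.7% and 21.9%, against 12.3%, 12.8% and 12.4% of protein-coding genes), and 25 windows held a word with 100 bp on each side (67.6%, against 62.3%).

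With each replicate left out in turn and peaks required in both others, 23 to 28 members were bound, of which 16 to 19 large and 7 to 9 small subunit, 15 to 18 bacterial-type and 8 to 10 mitochondria-specific, 20 to 25 head-to-head and 3 other, and 11 to 13 with the own TSS nearest or tied. The median rank was 1732 to 2250, the position -111.5 to -88.5 bp, and 12 to 13 other mitochondrial genes were bound. The count was 23 without replicate 1, 24 without replicate 2 and 28 without replicate 3, against 18.7%, 18.9% and 19% of protein-coding genes. These settings keep fewer peaks, so counts fall by construction. The mean per replicate was 30.5 to 34. CAGCTG was in 38 promoters (52.1%, against 12% of protein-coding genes) from 100 bp before to 50 bp after the TSS and in 41 (56.2%, against 22.3%) with every TSS, both chosen after seeing the data. No paired analysis was possible because the series has a single group. Depth, and with it the weakest binding that could be seen, is unknown.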
